A study of Bos taurus with 6 samples.

Results

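The genes described here are 9 antimicrobial, acute phase and inflammatory genes that are known for rising in the udder during mastitis, the inflammation of the mammary gland. They are lactoferrin (LTF), lipocalin 2 (LCN2), S100A8, S100A9, S100A12, serum amyloid A3 (SAA3), haptoglobin (HP), complement component 3 (C3) and prostaglandin-endoperoxide synthase 2 (PTGS2). They were taken by 9 Ensembl gene IDs, a rule that sets no threshold on measured values, and 8 of the 9 matched one of the 28522 gene rows of the count tables. SAA3 was not analysed here. The symbols came with the list of IDs and could not be checked against the tables. RNA was sequenced from 6 samples of bovine mammary epithelial cells, which the growth protocol calls MAC-T, an immortalised line. Of these, 3 samples were transfected with a miR-199a-3p mimic, an RNA duplex made to act as this microRNA does, and 3 with a negative control (NC) mimic. Both mimics were used at 50 nM, and cells were collected after 48 h. All 6 samples were thus transfected cells, and the labels name no bacterial or endotoxin challenge in either group. The labels do not say how far the cultures of a group were separate, so the p-values cover only sample-to-sample spread, some or all of it possibly technical.

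These genes belong to innate defence. In the mammary gland, epithelial cells sense bacteria through pattern recognition receptors and release chemokines, which draw in neutrophils, and antimicrobial proteins, which reach the milk. Some of the proteins withhold iron or other metals from bacteria, some label bacteria for uptake by phagocytes, and PTGS2 makes the precursor of the prostaglandins that accompany inflammation. Neutrophils and the liver are further sources of several of them, so their levels in whole milk or tissue need not come from the epithelium.

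The libraries held 16303257 to 23720655 counts, and 13949 rows passed the filter on low counts (edgeR's default, which asks for at least 10 counts at the median depth in as many libraries as a group has, and at least 15 over all libraries). Values are given as raw counts and as CPM, which scales a library's counts to its total over the tested rows times its TMM factor, a correction for differences in composition. NC replicate 2 stood apart from its group. Its log2 CPM correlated with those of NC replicates 1 and 3 at 0.987 across the tested rows, against 0.995 between NC replicates 1 and 3 and 0.995 to 0.996 between mimic libraries. Genes are not independent replicates, so these correlations are descriptions. The tables give no gene symbols, and no other symbol could be paired with an ID, so epithelial and immune cell markers were not analysed here.

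C3 was the only one of the 8 genes with counts high enough to be tested, and it rose with the miR-199a-3p mimic to 2.68 times its NC level. LTF, S100A8, S100A9, S100A12 and PTGS2 had 0 counts in all 6 libraries. HP and LCN2 had between 0 and 3 counts in each library, and their groups overlapped. In the edgeR quasi-likelihood test, 11.8% of the 13949 tested rows were called changed at an adjusted p under 0.05, 7.38% as rises and 4.40% as falls. These were 1029 rises and 614 falls, against 768 and 1010 with library size as the only scaling, under which C3 still rose. With 1 mimic library left out, the rows called numbered 472 (replicate 1), 510 (replicate 2) and 520 (replicate 3), against 1643 with all 6. With 1 NC library left out, they numbered 1257 (replicate 1), 3460 (replicate 2) and 951 (replicate 3). C3 was called in each of these fits. The call of 1 gene tested is read against this background and gives no statement about the 8 genes as a set.

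**Figure D1:**
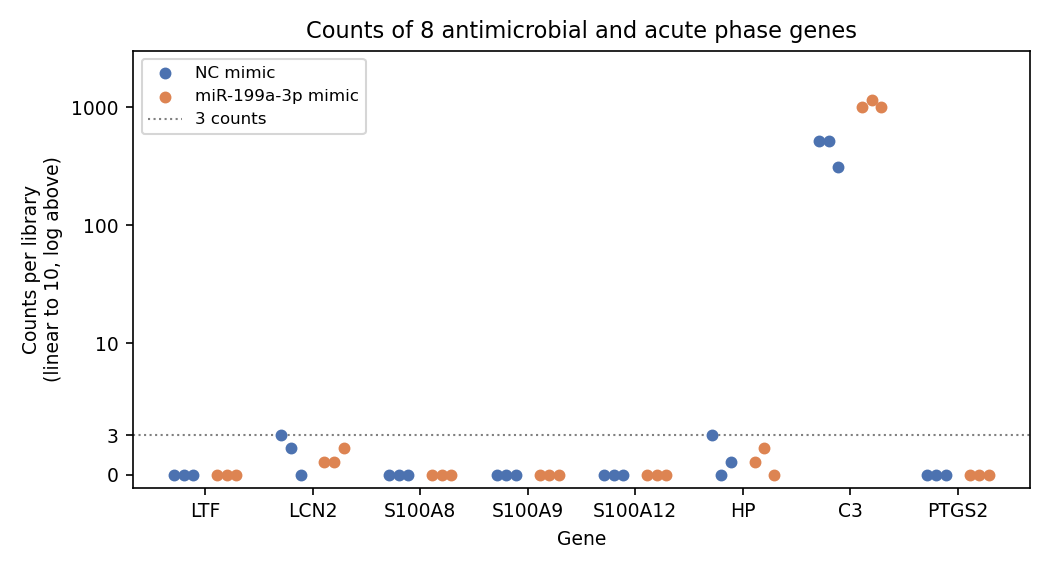
Raw counts (y axis, linear up to 10 and logarithmic above) of 8 genes (x axis) in the 3 NC mimic and the 3 miR-199a-3p mimic libraries, 1 point per library, with a dotted line at 3 counts. C3 lies between 313 and 1141 counts with all mimic points above all NC points, and the other 7 genes lie between 0 and 3 counts.

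The first role is the withholding of iron. LTF (ENSBTAG00000001292) encodes lactoferrin, an iron-binding protein of milk and of neutrophil granules. Its row had 0 counts in each NC library and in each mimic library. A count of 0 allows up to 3 counts, which corresponds to 0.124 CPM in the library with the most counts and 0.181 CPM in the one with the fewest. Summed over the 3 libraries of a group, the limit was 0.0473 CPM in NC and 0.0540 CPM in the mimic group. No fold change can be given for such a row. These limits cover counting error only, and the reads carried no stated molecular identifiers.

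LCN2 (ENSBTAG00000014149) encodes lipocalin 2, which binds the siderophores by which bacteria collect iron. NC replicates 1, 2 and 3 held 3, 2 and 0 counts of LCN2, or 0.124, 0.0888 and 0 CPM. Mimic replicates 1, 2 and 3 held 1, 1 and 2 counts, or 0.0562, 0.0524 and 0.107 CPM. The groups overlapped, and the NC libraries included both the highest and the lowest value. The mean was 0.0708 ± 0.0637 CPM in NC and 0.0719 ± 0.0306 CPM in the mimic group (SD, n = 3). The exact permutation test on CPM gave p = 1 (two-sided, and 1 after Benjamini-Hochberg adjustment over LCN2 and HP), where 3 against 3 libraries cannot give a p below 0.1. From the summed counts, 5 in NC and 4 in the mimic group, the 95% Poisson intervals of the level were 0.0256 to 0.184 CPM and 0.0196 to 0.184 CPM. The intervals overlap, and with so few counts a difference could be missed. They bound the level of each group and set no limit on the difference that could be detected, which was not tested.

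The second role is that of the calgranulins S100A8, S100A9 and S100A12, small calcium-binding proteins that are abundant in neutrophils. S100A8 and S100A9 pair to form calprotectin, which binds zinc and manganese and so limits bacterial growth. In the RefSeq annotation of the assembly ARS-UCD2.0 the 3 genes lie side by side, with S100A12 between S100A8 and S100A9. That assembly differs from UMD3.1, the build named for the deposited counts, so no coordinates are given. S100A8 (ENSBTAG00000012640), S100A9 (ENSBTAG00000006505) and S100A12 (ENSBTAG00000012638) each had 0 counts in all 3 NC and all 3 mimic libraries. Over the 6 libraries together the limit that a count of 0 allows was 0.0252 CPM for each. With no count in either group, a difference between the groups was not detectable for any of the 3.

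The third role is that of the acute phase proteins, which the liver releases into blood and which the inflamed udder also makes. HP (ENSBTAG00000006354) encodes haptoglobin, which binds free haemoglobin. NC replicates 1, 2 and 3 held 3, 0 and 1 counts of HP, or 0.124, 0 and 0.0604 CPM. Mimic replicates 1, 2 and 3 held 1, 2 and 0 counts, or 0.0562, 0.105 and 0 CPM. Each group had 1 library with no count, and the values overlapped. The mean was 0.0613 ± 0.0618 CPM in NC and 0.0537 ± 0.0525 CPM in the mimic group (SD, n = 3), and the exact permutation test gave p = 0.8 (two-sided, 1 after Benjamini-Hochberg adjustment over the same 2 genes). From summed counts of 4 and 3, the 95% Poisson intervals were 0.0172 to 0.162 CPM in NC and 0.0111 to 0.158 CPM in the mimic group. As for LCN2, no library rose above 3 counts, so no fold change is given for HP.

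PTGS2 (ENSBTAG00000014127) encodes the inducible cyclooxygenase, the enzyme that turns arachidonic acid into the prostaglandin precursor at sites of inflammation. It had 0 counts in all 6 libraries, with the same limits as LTF. The row was thus undetected in cells with the NC mimic and in cells with the miR-199a-3p mimic.

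Rows without counts were common in these tables. Of all 28522 rows, 8953 (31.4%) had 0 counts in every library, against 5 of the 8 genes described. A further 3080 rows (10.8%) had counts but no more than 3 in any library, as HP and LCN2 did. The filter left out 51.1% of all rows and 7 of the 8 genes. No source used here names the counting tool or says how it treated strand and shared reads, and whether reads of these genes had been assigned to another row or discarded was not tested.

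C3 (ENSBTAG00000017280) encodes the protein at which the complement pathways meet. Its cleavage coats bacteria with a fragment that phagocytes recognise, and another fragment attracts leukocytes. NC replicates 1, 2 and 3 held 521, 513 and 313 counts of C3, or 21.5, 22.8 and 18.9 CPM. Mimic replicates 1, 2 and 3 held 1003, 1141 and 1002 counts, or 56.4, 59.8 and 53.7 CPM. All 3 mimic libraries lay above all 3 NC libraries, and the gap between the lowest mimic and the highest NC library was 30.9 CPM. That gap exceeded the whole range within NC (3.88 CPM) and within the mimic group (6.15 CPM). Groups that did not overlap were seen in 34.2% of the tested rows, and with the mimic above in 18.3%.

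**Figure D2:**
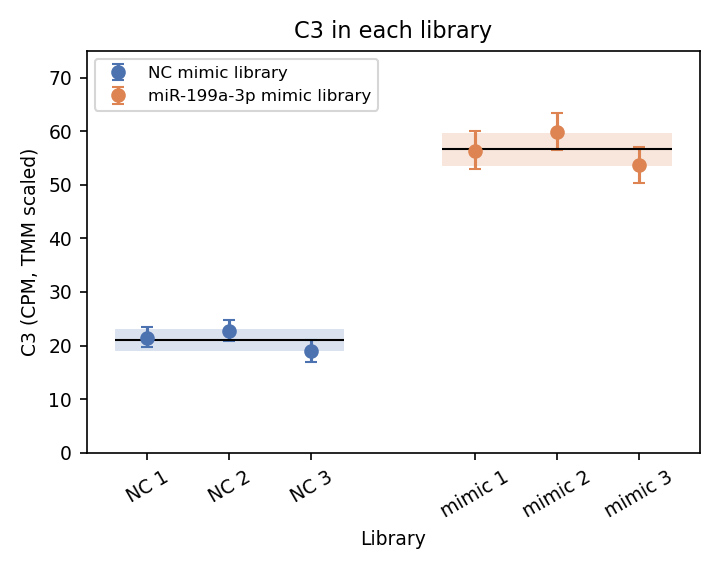
C3 in CPM (y axis, starting at 0) in each library (x axis), with 95% Poisson intervals of the count as bars, the mean of each group as a line and its SD (n = 3) as a band. The NC libraries sit between 18.9 and 22.8 CPM and the mimic libraries between 53.7 and 59.8 CPM.

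The mean level of C3 was 21.0 ± 1.97 CPM in NC and 56.6 ± 3.08 CPM in the mimic group (SD, n = 3), a difference of 35.6 CPM. On the log2 scale the change was 1.42 with a standard error of 0.087 (95% interval 1.23 to 1.62), or 2.68-fold with an interval of 2.34 to 3.08 (edgeR quasi-likelihood test, two-sided, Benjamini-Hochberg adjusted p = 5.80e-05 over all rows tested). Each of the 9 ratios of a mimic to an NC library was above 2, the lowest being 2.36 and the highest 3.17. These ratios reuse the same libraries and are not independent of each other. The lowest was of mimic replicate 3 to NC replicate 2, and the highest of mimic replicate 2 to NC replicate 3. The spread within the groups was modest. The coefficient of variation was 9.38% in NC, where counting error alone gives 4.85%, and 5.45% in the mimic group, where it gives 3.09%. C3 passed the filter in both groups, as its lowest NC library held 313 counts, so it was not admitted to the test by its mimic level alone.

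NC replicate 2, the library that stood apart from its group, had the highest C3 level of the NC libraries. That C3 level was the nearest to those of the mimic libraries. Across the tested rows, however, its log2 CPM correlated less with the mimic libraries (0.983 to 0.984) than those of NC replicates 1 and 3 did (0.989 to 0.990). Without NC replicate 2 the change of C3 was 1.47 on the log2 scale (2.78-fold, edgeR adjusted p = 8.53e-12). Without NC replicate 3, which had the lowest C3 level, it was 1.35 (2.55-fold, edgeR adjusted p = 0.000496). C3 was called in each of these fits, and these were the highest and the lowest estimates among the 14 alternative fits run.

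**Figure D3:**
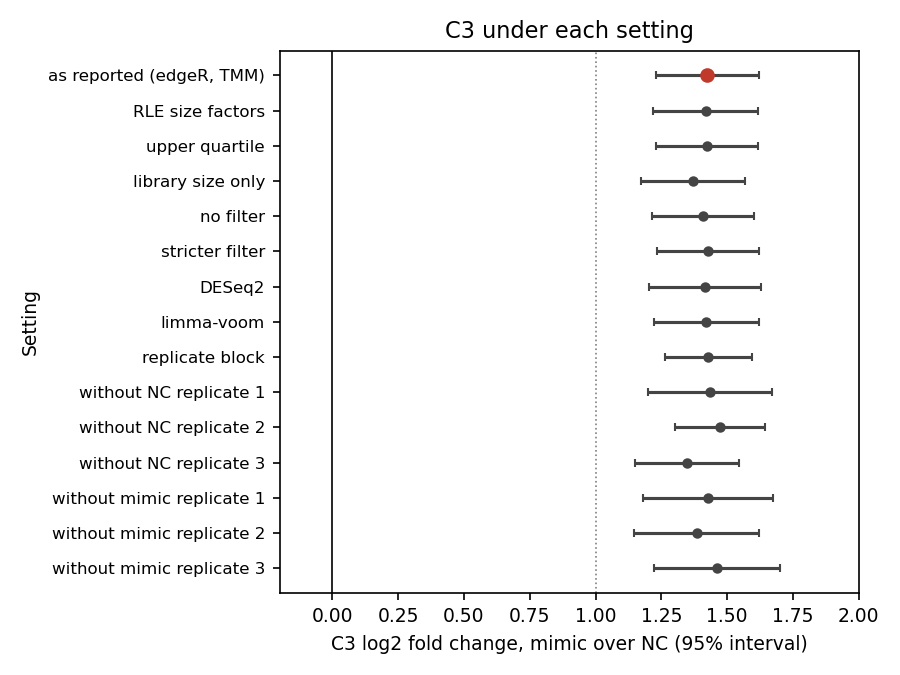
Log2 fold change of C3, mimic over NC (x axis), with its 95% interval, as reported (top) and under 14 other settings (y axis). The dotted line marks a 2-fold change. The estimates lie between 1.35 and 1.47, and each interval lies to the right of the dotted line.

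Among the 1029 rows that rose, C3 had the 37th largest log2 fold change, and its p-value was the 13th smallest of the 13949 rows tested. The median over these rises was 1.38-fold, or 0.47 on the log2 scale. Estimates of 2-fold or more were found in 120 of them, and in 27, C3 included, the whole 95% interval lay above 2-fold. The tested rows were put into 5 classes of equal size by mean CPM over the 6 libraries. Mean CPM depends on transcript length as well as abundance. C3 fell in the second highest class, which spanned 32.1 to 73.1 CPM. Its mean in NC, 21.0 CPM, lay below that span, so its mimic level helped to place it there. Of the 2790 rows in this class, 13.7% were called and 226 rose, with a median rise of 0.39. Of these 226 rises, 2 were as large as that of C3 or larger, C3 itself being one of them. The precision of C3 was ordinary for the class, with a standard error of 0.087 against a median of 0.080.

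**Figure D4:**
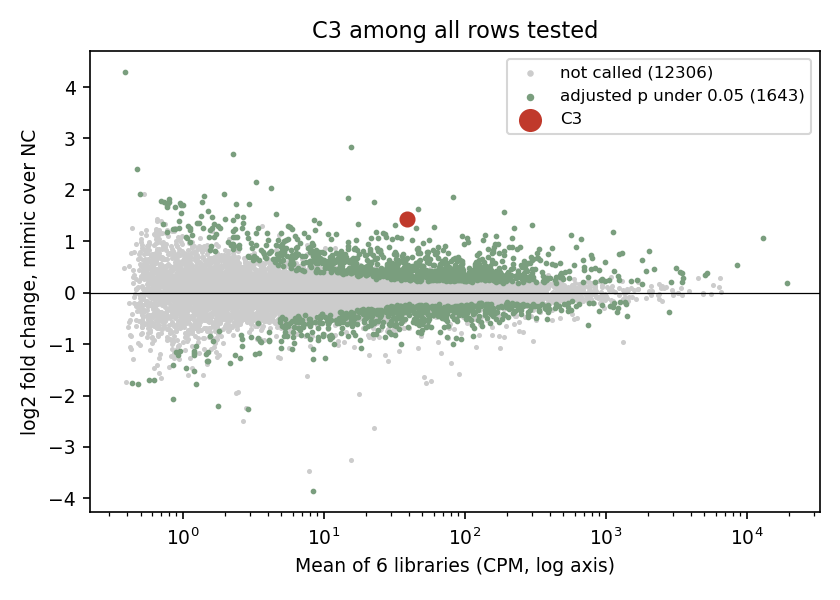
Log2 fold change, mimic over NC (y axis), against the mean CPM of the 6 libraries (x axis, logarithmic) for 13949 tested rows, with the 1643 called rows in green and C3 in red. C3 lies at 1.42, near the upper edge of rows of like mean CPM.

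Other rows followed the same pattern over the 6 libraries. Pearson's correlation of log2 CPM with C3 was over 0.95 in 499 other tested rows (3.58%). The 3 rows most like C3 had r of 0.998 to 0.999, and each rose, by 0.46 to 1.16 on the log2 scale. That they rose follows from choosing the rows that track C3. They have no symbol here and are not named. With 2 groups this far apart, rows that share a group difference correlate highly, and the correlation says nothing of shared function or control.

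In the RefSeq annotation of ARS-UCD2.0 a long non-coding RNA locus, LOC132345709, overlaps the C3 gene. Whether reads of that locus were counted with C3 was not tested, as no source used here gives the strand setting of the counts. Fewer or more cells of a type and less or more RNA per cell cannot be told apart in these bulk samples, which applies to the C3 difference as well.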

How the data were processed

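Per the labels' protocols, total RNA was extracted with TriZol and made into libraries with an mRNA kit from ABclonal. The authors deposited raw counts per gene ID, 1 table per sample. HISAT2, DESeq2 and the build UMD3.1 are named, per the submitters' processing notes. No source used here gives the counting tool, the annotation release or the strand setting. Symbols came with the list of 9 IDs that defined the genes. All 9 symbols occur in the reference table of 37063 genes, but that table lists 0 Ensembl IDs and could not check the pairing. Gene lists and cell type markers fixed by symbol were therefore not analysed here.

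The 2 groups were compared with edgeR 4.0.16 (quasi-likelihood test, TMM, group as the only term) in R 4.3.3, with Benjamini-Hochberg adjustment over all rows tested. Of the genes below the filter, HP and LCN2 were compared by exact permutation of CPM, and the 5 with 0 counts throughout were not compared. Alternatives used limma 3.58.1 (voom), DESeq2 1.42.0, other scalings and filters, a replicate block and the omission of each library. The procedure was tested on simulated data. All 9 genes are named by rule, as were the 3 rows most like a gene of at least 5 CPM if they had a symbol (log2 of CPM + 0.5). The rule that picks the genes reads only their IDs, but the genes, lists and tests were chosen with earlier results of these data known.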

Additional observations from a re-analysis of the deposited data

How the results depend on the processing

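C3 rose and was called in all 14 alternative fits, with log2 fold changes of 1.35 to 1.47. Its highest adjusted p was 0.00153 (edgeR, without mimic replicate 1). Only the fit without a filter gave another of the 8 genes an adjusted p. In the other fits C3 was the only gene of the 8 that could be called. With the replicate block, the change of C3 was 1.43 (edgeR adjusted p = 0.000384), and 1411 rows changed in all. Deviations of same-numbered libraries from their group means correlated at 0.012 to 0.075, with a library of another number ahead for NC replicate 3 (0.034), and the samples were treated as unpaired. The number of rows changed was 1643 as reported and 472 to 3460 when 1 library was left out, highest without NC replicate 2 and lowest without mimic replicate 1. These fits rest on 5 libraries each. For the higher number without NC replicate 2 the cause was not tested. The other scalings, filters and tools gave 1608 to 1778. With library size as the only scaling 768 rows rose and 1010 fell, against 1029 and 614 with TMM, and the median of all tested rows moved to -0.06 on the log2 scale, while C3 stood at 1.37. The same 7 genes were near zero by the filter, under 1 CPM or at most 3 counts in every library. Without a filter, neither HP nor LCN2 was called (edgeR adjusted p = 0.949 and 0.969), and DESeq2 gave both no adjusted p. The difference in mean CPM between mimic and NC ranged from -0.0383 to 0.0235 for HP and from -0.0342 to 0.0275 for LCN2 when 1 library was left out. For LCN2 it was 0.00115 as reported and -0.00161 with library size as the only scaling, so neither difference has a stable sign. Depth limits what can be said of the 7 genes to the levels given for 0 to 3 counts.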
